A study of Mus musculus with 23 samples.

Results

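RNA of whole gastrocnemius was compared between 4 HL1002P and 4 WT mice, which are 8 of the 23 libraries of the series: the count columns of gastrocnemius that carry those names. The other 15 libraries were 3 of HH gastrocnemius and 12 of fat. Gastrocnemius is the large calf muscle of the hind limb, built mostly of fast fibres in the mouse. HL1002P mice carried a hypomorphic (H) allele of Bub1b, which makes less of its protein BubR1, opposite a missense allele, L1002P, so that they had no wild-type copy of the gene. WT mice were wild type. Both groups were of a mixed 129Sve/C57BL/6 background, were 8 to 10 months old and received no treatment that the labels name. The labels call the mutants progeroid and link them to mosaic variegated aneuploidy (MVA), and the comparison asks which transcripts differed in a muscle of such mice.

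BubR1 is a kinase-like protein of the spindle assembly checkpoint, which delays the separation of chromosomes until all are attached to the spindle. In people, mutations on both copies of the gene cause mosaic variegated aneuploidy, and mice with little BubR1 are known for early signs of ageing, among them loss of muscle and fat. Muscle fibres have left the cell cycle and hold many nuclei, while the satellite cells, the immune cells and the connective tissue cells around them can divide.

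The 8 libraries held 34.1 to 55.3 M counts each, spread over 16121 to 16709 genes, with 21.6% to 26.9% of the counts in the top 10 genes. The fast fibre genes that define this muscle were abundant in every library: Myh4, the myosin heavy chain of the fastest fibres, had 33759, 49687, 46220.2 and 42184 CPM (counts scaled to a total of 1 M) in HL1002P libraries 1 to 4, against 60401, 39779, 50519.8 and 47746 CPM in WT libraries 1 to 4. The label of the tissue held on those genes in all 8 libraries. The labels give no sex; libraries 1 and 2 of each genotype held Y-linked transcripts and libraries 3 and 4 held Xist. HL1002P library 4 and WT library 1 lay at the ends of the first principal component (33.4% of the variance). The ends of the second (21.1%) were HL1002P library 1 and WT library 3. On the second component all libraries with Y-linked transcripts had positive scores and all with Xist negative ones. HL1002P library 2 correlated more with the WT libraries (mean r = 0.980 across genes, on a log2 scale) than with its own group (mean r = 0.976). Nothing in the labels says more of the replicates than that they are separate samples, and each p-value measures the spread between them.

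The mutated gene itself was lower in every HL1002P library than in every WT library. Bub1b (chromosome 2, 118598211 to 118641591, GRCm38) had 0.199, 0.178, 0.184 and 0.269 CPM in HL1002P libraries 1 to 4, against 0.937, 0.858, 0.715 and 0.755 CPM in WT libraries 1 to 4. The log2 fold change was −1.95 ± 0.32 (SE), on 38 counts in all HL1002P libraries together and 154 in all WT libraries (edgeR quasi-likelihood adjusted p = 0.0829, which does not pass the threshold of 0.05; DESeq2 adjusted p = 0.000584, range 0.000584 to 0.460 over all alternatives). The ratio of these counts, scaled by the library totals, was 0.259, with an exact conditional interval at 95% of 0.177 to 0.372 that covers counting error only. Of 22 genes of the checkpoint and of mitosis 15 had enough counts to be tested, and 0 passed. Beside Bub1b, 1 other was apart between the groups (2 of 15, 13.3%): Ccnb2, cyclin B2, was higher in HL1002P. Mki67, the proliferation antigen of dividing cells, had 0.937, 0.511, 0.944 and 1.34 CPM in HL1002P libraries 1 to 4, against 0.436, 0.755, 0.409 and 0.686 CPM in WT libraries 1 to 4 (edgeR adjusted p = 0.526). The median log2 fold change of the 15 was 0.04, beside 0.00 over all 14065 genes tested.

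Of the 14065 genes tested 8 passed (0.0569%), with 5 higher in HL1002P (0.0355%) and 3 lower (0.0213%). A looser count, that of genes whose 4 HL1002P libraries all lay on one side of the 4 WT libraries, took in 777 genes (5.52%), with 420 higher (2.99%) and 357 lower (2.54%) in HL1002P. An unadjusted p under 0.05 was reached by 944 genes that were higher (6.71%) and 559 that were lower (3.97%). These shares are the background for the gene groups that follow. Leaving out 1 library gave 3 to 17 calls: 5 without HL1002P library 1, 17 without library 2, 3 without library 3 and 5 without library 4, and 4 without WT library 1, 6 without library 2, 3 without library 3 and 7 without library 4. DESeq2 called 232 genes, all 8 among them, with 161 higher and 71 lower in HL1002P. In the fits of 2 HL1002P against 2 WT libraries, 3 of the 8 (Gm14085, Pla2g4e and Ccndbp1) passed among libraries with Xist and 1 (Gm14085) among those with Y-linked transcripts. Without library 1 of both genotypes Gm14085 alone of the 8 passed. "Rose" and "fell" are used for the 8 genes that passed, and the others are given by their values.

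**Figure D1:**
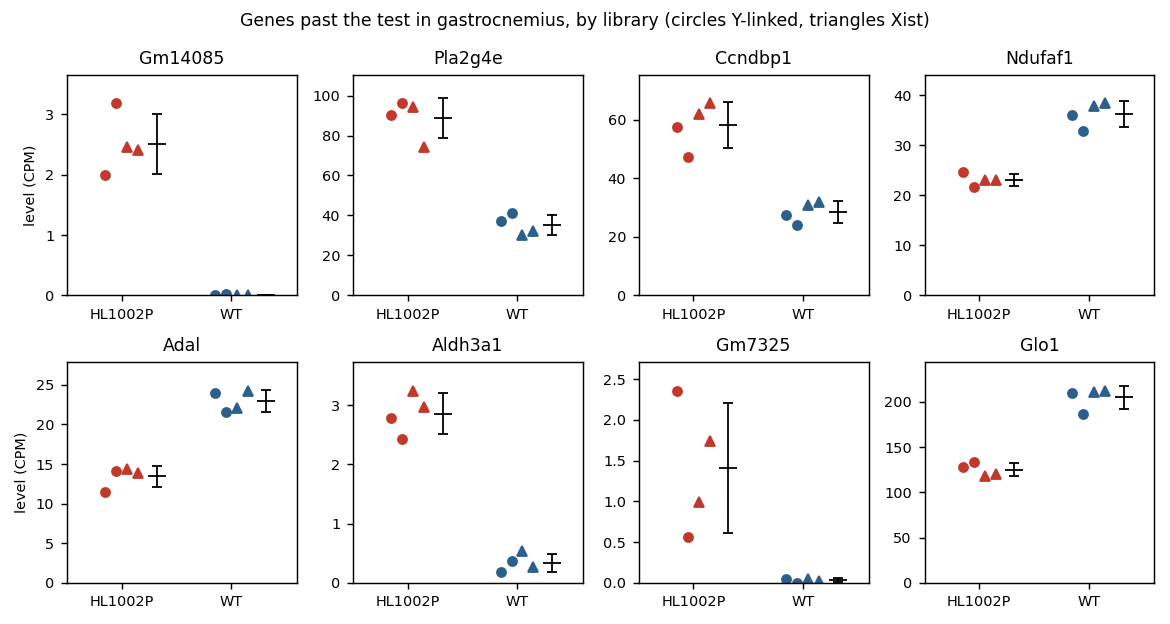
Level (CPM, vertical axes from 0) of the 8 genes that passed the test in the 4 HL1002P (red) and 4 WT (blue) libraries; circles are libraries with Y-linked transcripts, triangles those with Xist, and bars the mean and SD. The groups do not overlap in any panel: Pla2g4e lies at 74.2 to 96.1 CPM in HL1002P and 30.0 to 41.0 CPM in WT.

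The 8 genes fall into a set on the chromosome of Bub1b and 3 genes elsewhere. Pla2g4e, Ccndbp1, Adal, Ndufaf1 and Gm14085 all start within 5 Mb of the start of Bub1b on chromosome 2. Pla2g4e (chromosome 2, 120166412 to 120245335, minus strand) encodes a calcium-dependent phospholipase A2 family enzyme that makes N-acyl phosphatidylethanolamines. It had 90.1, 96.1, 94.0 and 74.2 CPM in HL1002P libraries 1 to 4, against 37.0, 41.0, 30.0 and 32.0 CPM in WT libraries 1 to 4, and rose by 1.34 ± 0.12 on the log2 scale (SE; edgeR adjusted p = 0.00361). The call held without any 1 of the 8 libraries. Ccndbp1 (chromosome 2, 121008403 to 121016904) encodes a helix-loop-helix protein that binds cyclin D. Its levels of 57.7, 47.5, 62.2 and 65.7 CPM in HL1002P libraries 1 to 4, against 27.4, 23.9, 31.0 and 31.8 CPM in WT libraries 1 to 4, gave a log2 fold change of 1.03 ± 0.13 (edgeR adjusted p = 0.0216).

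Ndufaf1 (chromosome 2, 119655446 to 119662827), an assembly factor of respiratory complex I, fell to 24.7, 21.8, 23.0 and 23.1 CPM in HL1002P libraries 1 to 4, against 36.0, 32.8, 37.8 and 38.4 CPM in WT libraries 1 to 4 (log2 fold change −0.65 ± 0.09, edgeR adjusted p = 0.0359). Adal (chromosome 2, 121140428 to 121156680), an adenosine deaminase-like enzyme, fell to 11.5, 14.2, 14.3 and 13.8 CPM in HL1002P libraries 1 to 4, against 23.9, 21.6, 22.1 and 24.3 CPM in WT libraries 1 to 4 (log2 fold change −0.77 ± 0.10, edgeR adjusted p = 0.0344). The span of Lcmt2 overlaps that of Adal on the other strand, and the library kit does not keep the strand. Reads of any exon stretch that this pair shares cannot be told apart, and whether their exons overlap was not examined. The SDs within a group were small for these genes: Ndufaf1 averaged 23.1 ± 1.22 CPM in HL1002P and 36.3 ± 2.52 CPM in WT, and Adal 13.5 ± 1.34 CPM in HL1002P and 23.0 ± 1.33 CPM in WT (SD, n = 4 each). Of the 8 fits that leave out a library, the call of Ccndbp1 passed in 2, and those of Ndufaf1 and Adal in 1 each.

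Gm14085 (chromosome 2, 122484941 to 122528040), named Slc28a2b in RefSeq, was the gene with the smallest p. It had 1.99, 3.18, 2.46 and 2.40 CPM in HL1002P libraries 1 to 4, against 0, 0.0172, 0 and 0 CPM in WT libraries 1 to 4, where a single read was counted in 1 library. The counts were 454 in all HL1002P libraries and 1 in all WT libraries, a ratio of 477 once scaled by the totals (exact conditional interval at 95% of 85.2 to 18895, counting error only; edgeR adjusted p = 0.000162). Its near-identical neighbour Slc28a2 (chromosome 2, 122426477 to 122461137), a concentrative nucleoside transporter gene, was chosen after its values were seen. Slc28a2 had 4.40, 7.09, 4.65 and 5.0 CPM in HL1002P libraries 1 to 4, against 15.2, 15.3, 9.61 and 8.42 CPM in WT libraries 1 to 4 (log2 fold change −1.20 ± 0.23, edgeR adjusted p = 0.151). Both genes were apart between the groups, in opposite directions.

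The transcripts of Gm14085 and Slc28a2 are 95.9% identical over 3748 aligned bases, so the share of reads assigned to each copy is uncertain. The sum of both copies was 7.80 ± 1.70 CPM in HL1002P and 12.1 ± 3.64 CPM in WT (SD, n = 4 each). The groups of the sum overlapped: HL1002P library 2 had 10.3 CPM, above WT library 3 (9.61 CPM) and WT library 4 (8.42 CPM). With sex as a covariate Slc28a2 passed as well (edgeR adjusted p = 0.0433, range 0.000457 to 0.540 over all alternatives).

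Other genes near Bub1b were named for their small p without passing. Hypk, a chaperone subunit of the N-terminal acetyltransferase that overlaps Serf2 and Serinc4, had 95.4, 71.2, 75.4 and 71.8 CPM in HL1002P libraries 1 to 4, against 41.5, 35.9, 40.7 and 51.3 CPM in WT libraries 1 to 4 (log2 fold change 0.89 ± 0.13, edgeR adjusted p = 0.0576). Ryr3, a calcium release channel, had 4.09, 3.38, 4.58 and 3.46 CPM in HL1002P libraries 1 to 4, against 1.63, 1.55, 0.869 and 0.961 CPM in WT libraries 1 to 4 (log2 fold change 1.62 ± 0.25, edgeR adjusted p = 0.0649). Both were higher in HL1002P. Mfap1a, a spliceosome component, had 8.69, 9.11, 8.54 and 8.73 CPM in HL1002P libraries 1 to 4, against 13.7, 13.4, 15.9 and 17.3 CPM in WT libraries 1 to 4 (log2 fold change −0.78 ± 0.11, edgeR adjusted p = 0.0501). Haus2, a subunit of the augmin complex of the spindle, had 7.98, 7.40, 7.64 and 6.33 CPM in HL1002P libraries 1 to 4, against 12.8, 12.4, 12.5 and 11.5 CPM in WT libraries 1 to 4 (log2 fold change −0.75 ± 0.11, edgeR adjusted p = 0.0576). These 4 genes were picked from genes whose HL1002P and WT libraries do not overlap, so their lack of overlap was set by the choice and is no result. On the other strand, the span of Aven overlaps that of Ryr3, and Lrrc57 that of Haus2.

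Within 5 Mb of Bub1b 94 genes were tested, of which 5 passed (5.32%) and 22 did not overlap between the groups (23.4%; 9 higher and 13 lower in HL1002P). Between 5 and 10 Mb away 0 of 57 passed, and the groups did not overlap for 14% of them. Between 10 and 20 Mb the share without overlap was 2.97% of 101 genes, between 20 and 40 Mb 5.33% of 244, and farther along the chromosome 4.22% of 592. On the other chromosomes 3 of 12886 genes passed (0.0233%), and 5.46% did not overlap. The mutant alleles and the chromosome segment that carries them came together in each HL1002P mouse, so differences of genotype and of that segment cannot be told apart here.

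**Figure D2:**
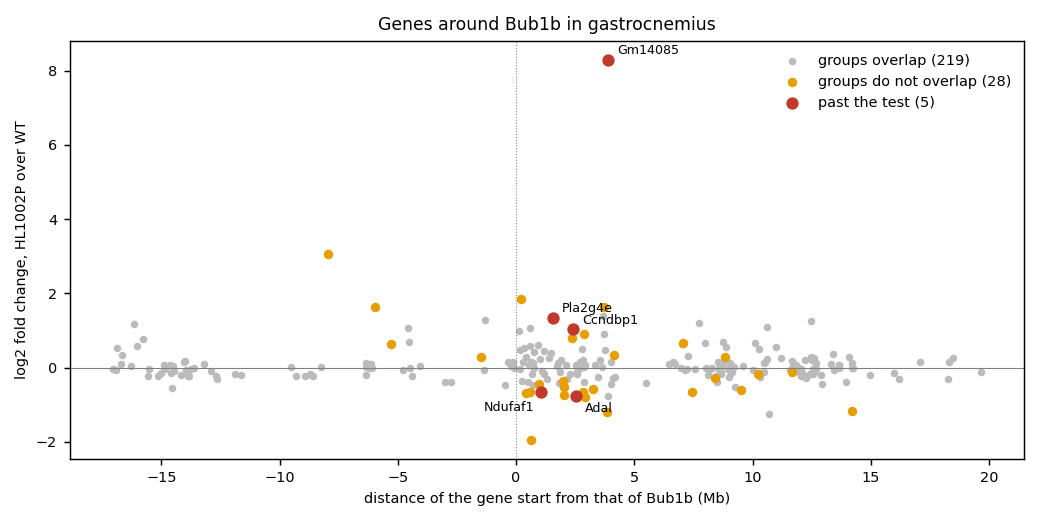
Log2 fold change (HL1002P over WT, vertical axis) of the 252 tested genes that start within 20 Mb of the start of Bub1b (distance in Mb, horizontal axis; Bub1b at 0). The 5 genes that passed are red and lie within 5 Mb; a further 28 whose groups do not overlap are orange, and the 219 others are grey.

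Beyond that segment Aldh3a1, Gm7325 and Glo1 passed. Aldh3a1 (chromosome 11, 61207537 to 61218421) encodes an aldehyde dehydrogenase that oxidises aldehydes from lipid peroxidation and is best known from the cornea. It had 2.78, 2.42, 3.25 and 2.98 CPM in HL1002P libraries 1 to 4, against 0.174, 0.361, 0.537 and 0.275 CPM in WT libraries 1 to 4, so that the lowest HL1002P library was far above the highest WT library. Aldh3a1 rose by a log2 fold change of 3.09 ± 0.32 (edgeR adjusted p = 0.00745), and the call held without any 1 library, but not among the Xist or the Y-linked libraries alone or without library 1 of both genotypes (largest edgeR adjusted p = 0.125).

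Glo1 (chromosome 17, 30584936 to 30626871, minus strand) encodes glyoxalase I, which clears the reactive dicarbonyl methylglyoxal. It fell to 128, 134, 118 and 120.0 CPM in HL1002P libraries 1 to 4, against 210.3, 187, 211 and 212 CPM in WT libraries 1 to 4 (log2 fold change −0.72 ± 0.09, edgeR adjusted p = 0.0216). The span of Dnah8 overlaps that of Glo1 on the other strand. Reads of any exon stretch that the pair shares cannot be told apart, and whether their exons overlap was not examined. The highest HL1002P library was below the lowest WT library, and the call passed in 2 of the 8 fits that leave out a library.

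These enzymes belong to a list of 20 aldehyde detoxification genes and targets of NRF2, the transcription factor of the oxidant response. In it 1 gene rose, 1 fell and 18 did not pass, and the median log2 fold change was 0.04. The groups did not overlap for 4 of the 20 (20%). Nqo1, a quinone reductase and a classical NRF2 target, had 20.4, 30.6, 25.3 and 30.4 CPM in HL1002P libraries 1 to 4, against 38.7, 52.5, 48.2 and 44.3 CPM in WT libraries 1 to 4 (log2 fold change −0.78 ± 0.14, edgeR adjusted p = 0.134). Hmox1, heme oxygenase 1 and another classical target, lay the other way, at 14.7, 9.18, 9.05 and 16.2 CPM in HL1002P libraries 1 to 4, against 5.19, 7.90, 8.69 and 6.77 CPM in WT libraries 1 to 4 (log2 fold change 0.78 ± 0.23, edgeR adjusted p = 0.323).

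Gm7325 (chromosome 17, 45600971 to 45602102, minus strand), now named Mymx, encodes myomixer, the small membrane protein with which myoblasts fuse into fibres. Its transcript was nearly absent from WT muscle: it had 2.36, 0.556, 0.990 and 1.74 CPM in HL1002P libraries 1 to 4, against 0.0436, 0, 0.0511 and 0.0229 CPM in WT libraries 1 to 4. The counts were 248 in all HL1002P libraries and 5 in all WT libraries, a scaled ratio of 52.1 (exact conditional interval at 95% of 22.0 to 162, counting error only). Gm7325 rose by a log2 fold change of 5.56 ± 0.71 (edgeR adjusted p = 0.0239). It did not pass with limma voom (adjusted p = 0.0652, range 1.28e-08 to 0.308 over all alternatives), and the call passed in 1 of the 8 fits that leave out a library.

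Tmem8c, now named Mymk, encodes myomaker, the other protein needed for this fusion. It had 8.92, 0.556, 1.54 and 1.31 CPM in HL1002P libraries 1 to 4, against 0.0436, 0.103, 0.153 and 0.366 CPM in WT libraries 1 to 4 (log2 fold change 4.20 ± 1.02, edgeR adjusted p = 0.287). There was no overlap, and HL1002P library 1 was far above the other 3 HL1002P libraries. Pax7, the transcription factor of satellite cells, the stem cells of muscle, had 0.653, 0.956, 1.5 and 0.663 CPM in HL1002P libraries 1 to 4, against 1.55, 2.80, 1.43 and 1.67 CPM in WT libraries 1 to 4 (log2 fold change −0.99 ± 0.34, edgeR adjusted p = 0.368), and its groups overlapped. Fgfr4, a growth factor receptor of myoblasts, had 1.56, 1.6, 2.10 and 1.45 CPM in HL1002P libraries 1 to 4, against 2.14, 3.38, 2.40 and 2.91 CPM in WT libraries 1 to 4 (edgeR adjusted p = 0.338), with no overlap. Of the 22 satellite cell and myogenic genes 1 rose and 21 did not pass; 3 (Gm7325, Tmem8c and the chemokine receptor Cxcr4) were higher and 1 lower without overlap (18.2%), and the median log2 fold change was 0.19. Of the 22, 15 had a positive log2 fold change and 7 a negative one. Myf5 and Myod1, also on the list, overlapped between the groups. Their log2 fold changes were 0.19 ± 0.34 and 0.36 ± 0.25 (edgeR adjusted p = 0.880 and 0.642). In whole muscle, a change in the number of cells of a type and one in RNA per cell cannot be told apart.

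When a fibre loses its nerve it switches on a set of genes again: the embryonic acetylcholine receptor subunit Chrng and the other receptor subunits along the whole fibre, the adhesion molecule Ncam1, the transcription factors myogenin (Myog) and Runx1, and the embryonic myosin Myh3. None of the 22 genes on this denervation list passed. Their log2 fold changes were positive for 21 of 22, with a median of 1.21, beside 0.00 over all genes. The groups did not overlap for 8 of 22 (36.4%, beside 5.52% of all genes), with 7 higher and 1 lower. An unadjusted p under 0.05 was reached by 15 that were higher and 1 that was lower.

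The promoters of Chrng, of the receptor subunit gene Chrna1 and of Igfn1, a sarcomere gene, are shown because they hold the E-box CAGCTG, the core sequence that myogenic helix-loop-helix factors such as MyoD and myogenin are known to bind. The letters are those of RefSeq (GRCm38.p6), 5′ to 3′ on the strand of the gene, from 250 bases before its start to 50 bases after; capitals mark each CAGCTG, which reads the same on both strands.
Chrna1, chr2:73580289-73580588, minus strand: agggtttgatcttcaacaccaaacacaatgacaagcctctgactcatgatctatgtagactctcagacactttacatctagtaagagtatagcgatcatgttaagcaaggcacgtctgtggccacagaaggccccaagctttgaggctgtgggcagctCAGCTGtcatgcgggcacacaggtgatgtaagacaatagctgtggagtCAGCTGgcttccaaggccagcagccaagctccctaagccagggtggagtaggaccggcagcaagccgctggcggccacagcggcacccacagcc
Chrng, chr1:87205561-87205860, plus strand: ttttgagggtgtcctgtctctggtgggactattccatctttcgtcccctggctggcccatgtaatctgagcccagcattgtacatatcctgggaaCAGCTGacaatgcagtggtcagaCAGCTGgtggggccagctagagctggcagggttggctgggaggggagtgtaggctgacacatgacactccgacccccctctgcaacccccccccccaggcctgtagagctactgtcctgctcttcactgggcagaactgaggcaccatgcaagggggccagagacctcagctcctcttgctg
Igfn1, chr1:136006293-136006592, minus strand: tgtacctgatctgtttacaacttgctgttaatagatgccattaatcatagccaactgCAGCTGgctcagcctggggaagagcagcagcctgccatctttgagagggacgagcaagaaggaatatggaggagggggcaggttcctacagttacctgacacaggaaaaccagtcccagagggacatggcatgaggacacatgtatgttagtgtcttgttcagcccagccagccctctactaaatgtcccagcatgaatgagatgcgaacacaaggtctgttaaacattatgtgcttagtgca
The motifs begin 92 and 44 bases before the start of Chrna1, 155 and 132 bases before that of Chrng, and 193 bases before that of Igfn1. CAGCTG occurs in 16.3% of the 32851 promoters of the same length, and at least 2 copies in 1.9%. The 16 denervation genes with an entry have 21 promoters, of which 5 hold it (23.8%). A match of letters is a description and does not show that a factor was bound.

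Chrna1, the receptor subunit that binds acetylcholine, had 189, 45.4, 53.8 and 44.6 CPM in HL1002P libraries 1 to 4, against 21.5, 31.5, 26.7 and 23.3 CPM in WT libraries 1 to 4 (log2 fold change 1.69 ± 0.49, edgeR adjusted p = 0.335). Chrng had 20.1, 0.911, 1.75 and 3.21 CPM in HL1002P libraries 1 to 4, against 0.240, 0.343, 0.204 and 0.252 CPM in WT libraries 1 to 4 (log2 fold change 4.60 ± 1.07, edgeR adjusted p = 0.282). Neither gene's groups overlapped, and in both HL1002P library 1 was more than 3-fold above the other HL1002P libraries. Chrnb1, the beta subunit, was more even, at 109, 55.7, 63.0 and 52.2 CPM in HL1002P libraries 1 to 4, against 40.2, 35.2, 34.3 and 44.0 CPM in WT libraries 1 to 4 (log2 fold change 0.86 ± 0.22, edgeR adjusted p = 0.298). Chrne, the adult subunit that replaces Chrng at the mature junction, had 23.1, 19.7, 16.6 and 17.6 CPM in HL1002P libraries 1 to 4, against 20.04, 14.1, 13.2 and 13.7 CPM in WT libraries 1 to 4, and its groups overlapped.

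The same spread held for Runx1 and Ncam1. Runx1 had 34.5, 4.82, 6.35 and 8.73 CPM in HL1002P libraries 1 to 4, against 2.61, 3.0, 2.73 and 2.77 CPM in WT libraries 1 to 4 (log2 fold change 2.28 ± 0.62, edgeR adjusted p = 0.32). Ncam1 had 34.3, 11.4, 15.7 and 15.5 CPM in HL1002P libraries 1 to 4, against 7.04, 8.26, 10.0 and 10.1 CPM in WT libraries 1 to 4 (edgeR adjusted p = 0.323). The groups of neither gene overlapped, with the top value in HL1002P library 1 each time. Myh8 and Musk, also on the list, had groups that overlapped (edgeR adjusted p = 0.435 and 0.590). Myh8 had 62.7, 105, 120 and 97.8 CPM in HL1002P libraries 1 to 4, so that library 1 was the lowest of them. In WT libraries 1 to 4 it had 67.4, 74.5, 39.0 and 75.3 CPM. Musk had 30.3, 19.3, 21.2 and 24.8 CPM in HL1002P libraries 1 to 4. In WT libraries 1 to 4 it had 22.3, 20.8, 11.9 and 5.45 CPM.

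Gdf5, a bone morphogenetic protein that is known to protect denervated muscle from wasting, had 18.1, 1.20, 1.57 and 1.79 CPM in HL1002P libraries 1 to 4, against 0.218, 0.275, 0.639 and 0.137 CPM in WT libraries 1 to 4 (log2 fold change 4.16 ± 1.10, edgeR adjusted p = 0.315). Gadd45a, which is induced in denervated fibres, had 188, 16.0, 33.7 and 36.0 CPM in HL1002P libraries 1 to 4, against 9.11, 5.80, 17.9 and 16.8 CPM in WT libraries 1 to 4 (log2 fold change 2.47 ± 0.81, edgeR adjusted p = 0.371). Its groups overlapped at HL1002P library 2, as did those of Myh3, which had 181, 15.1, 37.6 and 29.4 CPM in HL1002P libraries 1 to 4, against 10.1, 8.72, 14.4 and 17.4 CPM in WT libraries 1 to 4 (edgeR adjusted p = 0.368). Myog had 40.1, 6.27, 11.7 and 16.3 CPM in HL1002P libraries 1 to 4, against 6.45, 5.20, 8.38 and 10.1 CPM in WT libraries 1 to 4 (edgeR adjusted p = 0.439), and overlapped too. Dach2, which represses myogenin in innervated fibres, was the member with lower levels, at 1.39, 1.73, 1.84 and 1.72 CPM in HL1002P libraries 1 to 4, against 2.37, 3.47, 4.57 and 3.02 CPM in WT libraries 1 to 4 (log2 fold change −1.002 ± 0.23, edgeR adjusted p = 0.227).

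HL1002P library 1 was the highest of the 8 libraries for 16 of the 22 denervation genes, beside 2482 of all 14065 genes. Without it the median log2 fold change of the list was 0.79, and without it and WT library 1 it was 0.77, a value chosen after the data were seen. Among libraries with Xist alone, which leave out HL1002P library 1, the median was 0.88, and among those with Y-linked transcripts 1.77. Of 19 tested genes of the neuromuscular junction 0 passed, and the 4 that were higher without overlap (21.1%) were the receptor subunits Chrna1, Chrnb1, Chrnd and Chrng. The median of the junction genes was 0.21.

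**Figure D3:**
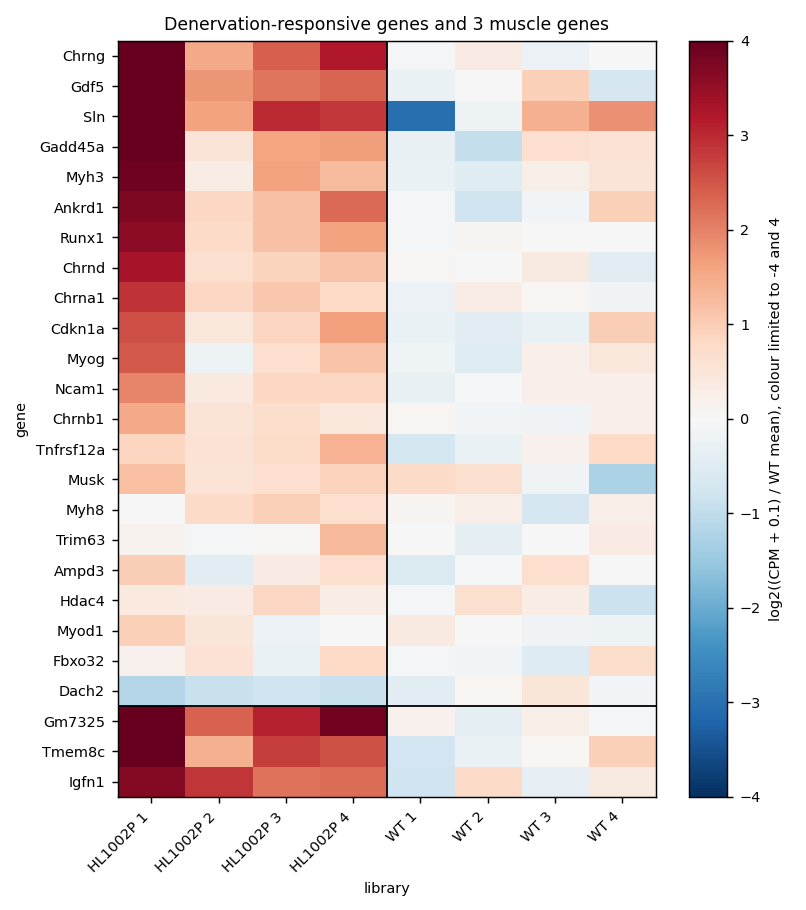
Level of the 22 denervation genes and of Gm7325, Tmem8c and Igfn1 (rows) in each of the 4 HL1002P and 4 WT libraries (columns), as the log2 of CPM + 0.1 relative to the mean of the WT libraries; red is higher and blue lower. HL1002P library 1 has the highest value in 16 of the 22 denervation rows, and Dach2 is the row that is blue in all 4 HL1002P libraries.

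Most genes with which mitochondria burn fat lay lower in HL1002P muscle by small amounts. Of 32 genes of fatty acid uptake and oxidation 0 passed, and 26 had a negative log2 fold change. The groups did not overlap for 18 of 32 (56.2%, beside 5.52% of all genes), with all 18 lower in HL1002P, and 20 were lower with an unadjusted p under 0.05. The median log2 fold change was −0.31. The summed level of the list, 6687, 6945, 7388 and 8068 CPM in HL1002P libraries 1 to 4, against 7529, 10869.6, 8996 and 9228 CPM in WT libraries 1 to 4, overlapped at WT library 1.

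Fabp3, a carrier of fatty acids in heart and muscle fibres, had 377, 436, 452 and 484 CPM in HL1002P libraries 1 to 4, against 631, 1040.5, 855 and 836 CPM in WT libraries 1 to 4 (log2 fold change −0.94 ± 0.15, edgeR adjusted p = 0.0712). It passed with sex as a covariate (edgeR adjusted p = 0.0481, range 2.87e-06 to 0.427 over all alternatives), and other genes overlap it on the opposite strand. Cpt2, which hands acyl groups to the matrix of the mitochondrion, had 74.0, 67.5, 77.3 and 82.2 CPM in HL1002P libraries 1 to 4, against 88.3, 112, 101 and 107 CPM in WT libraries 1 to 4 (log2 fold change −0.44 ± 0.10, edgeR adjusted p = 0.228). The groups were apart for both.

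Hadha and Hadhb encode the alpha and beta subunits of the trifunctional protein and lie head to head on chromosome 5. Hadha had 358, 358, 394 and 415 CPM in HL1002P libraries 1 to 4, against 432, 601, 516 and 491 CPM in WT libraries 1 to 4 (log2 fold change −0.42 ± 0.11, edgeR adjusted p = 0.298). Hadhb had 494, 477, 487 and 486 CPM in HL1002P libraries 1 to 4, against 572, 742, 693 and 647 CPM in WT libraries 1 to 4 (log2 fold change −0.45 ± 0.10, edgeR adjusted p = 0.222). Hadhb averaged 486 ± 6.98 CPM in HL1002P and 663 ± 72.4 CPM in WT (SD, n = 4 each).

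Acaa2, the thiolase of the last step, had 154, 162, 159.8 and 179 CPM in HL1002P libraries 1 to 4, against 216, 305, 243 and 232 CPM in WT libraries 1 to 4 (log2 fold change −0.61 ± 0.12, edgeR adjusted p = 0.149). Decr1, which prepares unsaturated fatty acids for the cycle, had 112, 118, 119 and 119 CPM in HL1002P libraries 1 to 4, against 149, 184, 171 and 146 CPM in WT libraries 1 to 4 (log2 fold change −0.47 ± 0.10, edgeR adjusted p = 0.164). Acadl, the long-chain acyl-CoA dehydrogenase, had 257, 253, 240.1 and 277 CPM in HL1002P libraries 1 to 4, against 278, 357, 293 and 302 CPM in WT libraries 1 to 4 (log2 fold change −0.26 ± 0.10, edgeR adjusted p = 0.403). WT library 2 held the highest value of the 8 for 22 of the 32 genes, and without it the median of the list was −0.24. Cpt1b, the muscle form of the first enzyme of import, was listed below 0.5 CPM in all 8 libraries; it overlaps a readthrough gene on its strand, so its level is uncertain.

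Genes of oxidative phosphorylation, the respiratory chain and ATP synthase, had smaller differences in the same direction. None of 30 passed; 28 had a negative log2 fold change, with a median of −0.16, and 10 were lower without overlap (33.3%). WT library 4 was the highest for 15 of the 30 and WT library 2 for 8; without WT library 4 the median was −0.13, and without WT library 2 −0.15. Ndufs8, a subunit of complex I, had 109, 112, 114 and 116 CPM in HL1002P libraries 1 to 4, against 133, 133, 129 and 151 CPM in WT libraries 1 to 4 (log2 fold change −0.28 ± 0.08, edgeR adjusted p = 0.326). Sdhb, a subunit of succinate dehydrogenase, had a log2 fold change of −0.26 ± 0.09 (edgeR adjusted p = 0.365), also without overlap. Of 19 genes of glycolysis and glycogen 0 passed and 0 were apart between the groups, with a median of −0.03.

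**Figure D4:**
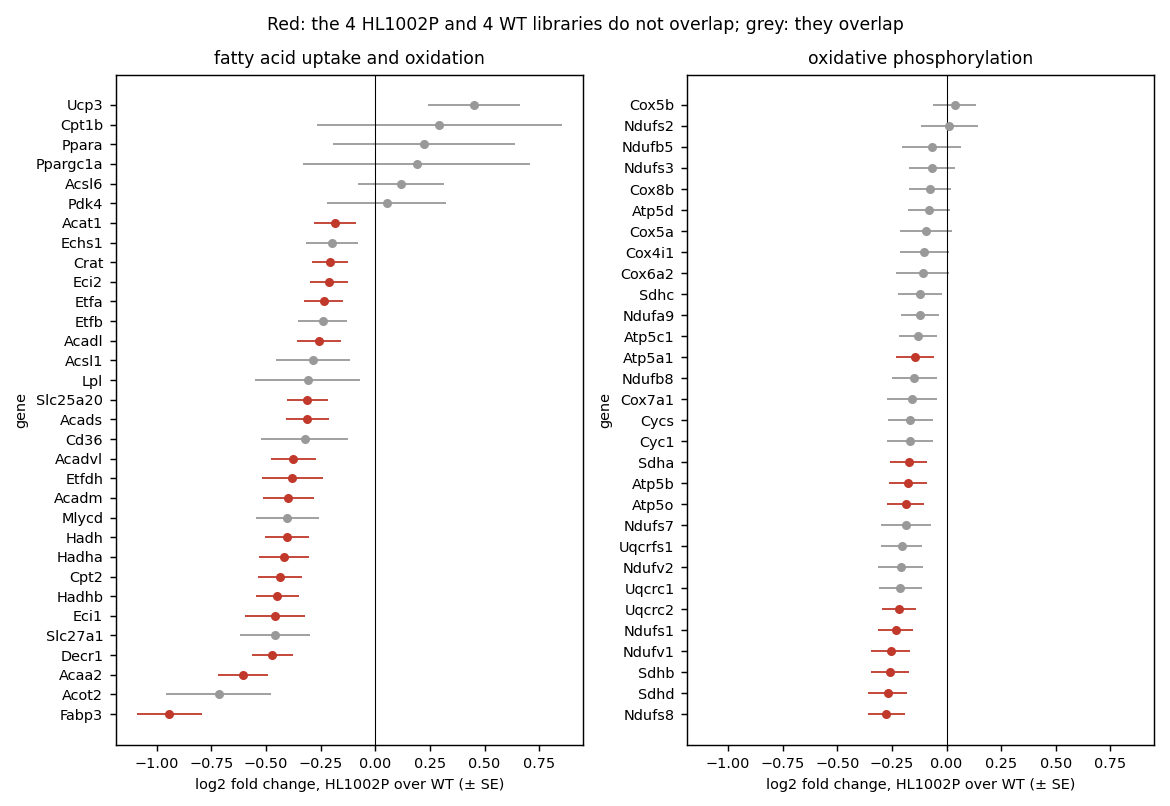
Log2 fold change (HL1002P over WT, horizontal axes, with SE bars) of the 32 genes of fatty acid uptake and oxidation (left) and the 30 of oxidative phosphorylation (right). Red points are genes whose 4 HL1002P and 4 WT libraries do not overlap, 18 on the left and 10 on the right, all of them below 0.

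Fibre type genes did not separate the groups. As a share of the 4 adult myosin heavy chain transcripts, per length, Myh4 held 86.0 ± 4.42% in HL1002P and 88.8 ± 3.25% in WT (SD, n = 4 each). The share of Myh1 was 6.39 ± 2.32% in HL1002P and 4.66 ± 0.735% in WT, that of Myh2 was 4.70 ± 2.24% in HL1002P and 4.31 ± 2.26% in WT, and that of the slow myosin Myh7 was 2.95 ± 1.18% in HL1002P and 2.19 ± 1.29% in WT. Each difference was smaller than the SD of at least 1 group. None of 16 fast fibre genes passed (median −0.06, 0 apart), and none of 16 slow fibre genes (median 0.22, 1 apart, 6.25%). WT library 1 was low in slow fibre genes, with a summed level of 2073 CPM beside 8478 to 15859 CPM in HL1002P and 10822 to 14162 CPM in the other WT libraries.

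Single slow fibre genes lay apart or nearly so. Myl6b, a slow and embryonic myosin light chain, had 69.4, 35.7, 67.1 and 31.3 CPM in HL1002P libraries 1 to 4, against 8.93, 14.9, 22.3 and 27.2 CPM in WT libraries 1 to 4 (log2 fold change 1.47 ± 0.40, edgeR adjusted p = 0.318). Sln, sarcolipin, an inhibitor of the calcium pump, had 455, 54.8, 141 and 126 CPM in HL1002P libraries 1 to 4, against 2.09, 15.4, 47.1 and 62.5 CPM in WT libraries 1 to 4 (log2 fold change 2.61 ± 1.01, edgeR adjusted p = 0.426), with WT library 1 lowest and HL1002P library 1 highest.

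Igfn1, a sarcomere protein of immunoglobulin and fibronectin domains, had 141, 79.4, 48.9 and 52.1 CPM in HL1002P libraries 1 to 4, against 6.23, 18.5, 8.59 and 14.1 CPM in WT libraries 1 to 4. Every HL1002P library was more than 2-fold above every WT library (log2 fold change 2.76 ± 0.46, edgeR adjusted p = 0.147). It was on a list of 23 sarcomere and strain-responsive genes, of which 0 passed and 3, Igfn1, Mypn and Smpx, were higher without overlap (13%), with a median of 0.22. Ankrd1, which rises in stretched and denervated muscle, had 162, 21.7, 27.4 and 58.4 CPM in HL1002P libraries 1 to 4, against 11.9, 7.0, 11.1 and 23.4 CPM in WT libraries 1 to 4 (log2 fold change 2.33 ± 0.70, edgeR adjusted p = 0.345), and HL1002P library 2 lay within the WT range. Ky, a Z-disc protein needed for muscle upkeep, had 167, 265, 129 and 76.6 CPM in HL1002P libraries 1 to 4, against 338, 305, 315 and 232 CPM in WT libraries 1 to 4 (log2 fold change −0.90 ± 0.33, edgeR adjusted p = 0.394), with HL1002P library 2 inside the WT range.

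Among 23 atrophy ligases and FoxO targets 0 passed and 1, Eif4ebp1, was apart between the groups (4.35%), and the median was 0.13. Foxo1, the transcription factor that drives such genes, had 66.0, 20.3, 79.7 and 118 CPM in HL1002P libraries 1 to 4, against 15.8, 18.6, 21.3 and 19.2 CPM in WT libraries 1 to 4 (log2 fold change 1.93 ± 0.45, edgeR adjusted p = 0.282). HL1002P library 2 lay among the WT libraries and the other 3 were well above; without library 2 Foxo1 passed (log2 fold change 2.23, edgeR adjusted p = 0.00592, range 0.00592 to 0.729 over all alternatives). Trim63, the ligase MuRF1, had 293, 252, 271 and 655 CPM in HL1002P libraries 1 to 4, against 270.0, 205, 265 and 336 CPM in WT libraries 1 to 4 (edgeR adjusted p = 0.650), so that 1 HL1002P library stood above all others.

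Cell cycle inhibitors and the factors that senescent cells secrete were examined because senescence is a known feature of BubR1 mutant mice. Cdkn2a (chromosome 4, 89274471 to 89294653), the gene of p16 and p19Arf, had 0.909, 0.534, 0.645 and 0.359 CPM in HL1002P libraries 1 to 4, against 0, 0.103, 0.102 and 0.0458 CPM in WT libraries 1 to 4. Every HL1002P library was above every WT library, on 104 counts in all HL1002P libraries and 12 in all WT libraries (scaled ratio 9.11, exact conditional interval at 95% of 5.0 to 18.2, counting error only; log2 fold change 3.20 ± 0.63, edgeR adjusted p = 0.151). Cdkn2c, the inhibitor p18, lay the other way, at 5.96, 6.58, 6.54 and 6.40 CPM in HL1002P libraries 1 to 4, against 11.3, 8.09, 9.48 and 10.8 CPM in WT libraries 1 to 4 (log2 fold change −0.64 ± 0.13, edgeR adjusted p = 0.180). Cdkn1a, the p53 target p21, had 211, 48.7, 64.8 and 112 CPM in HL1002P libraries 1 to 4, against 29.4, 26.3, 29.4 and 70.0 CPM in WT libraries 1 to 4 (log2 fold change 1.49 ± 0.52, edgeR adjusted p = 0.383), with an overlap between WT library 4 and HL1002P libraries 2 and 3. None of 7 inhibitors passed, 2 were apart (28.6%), and their median was 0.03. Cdkn1a was also on the denervation list, as were Trim63 and Ankrd1, so these lists are not separate observations.

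Of 28 secreted factors of senescent cells 21 were tested and 0 passed; 3 were higher without overlap (14.3%), and the median was 0.46. Spp1, osteopontin, had 10.8, 8.78, 10.8 and 8.48 CPM in HL1002P libraries 1 to 4, against 4.23, 5.27, 4.50 and 6.04 CPM in WT libraries 1 to 4 (log2 fold change 0.95 ± 0.16, edgeR adjusted p = 0.0829). Timp1, an inhibitor of matrix proteases, had 5.60, 1.6, 2.05 and 2.04 CPM in HL1002P libraries 1 to 4, against 0.697, 0.910, 0.792 and 1.05 CPM in WT libraries 1 to 4 (edgeR adjusted p = 0.228). Ccl8, a chemokine of monocytes, had 11.5, 4.07, 3.87 and 19.5 CPM in HL1002P libraries 1 to 4, against 0.392, 1.87, 2.68 and 1.65 CPM in WT libraries 1 to 4 (edgeR adjusted p = 0.316). Il6, Il1a, Il1b, Tnf, Cxcl2, Mmp13 and Areg had too few counts to be tested. Of 28 p53 target genes tested 0 passed, 2 were higher without overlap (7.14%), and the median was 0.27; Bbc3, the death factor PUMA, had 3.69, 2.73, 2.42 and 2.71 CPM in HL1002P libraries 1 to 4, against 1.5, 1.70, 1.69 and 2.22 CPM in WT libraries 1 to 4 (edgeR adjusted p = 0.331), and the other was Psrc1.

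Macrophage markers were higher on average and varied widely among the HL1002P libraries. All 23 tested had a positive log2 fold change, with a median of 1.10, and 14 were higher with an unadjusted p under 0.05, but 0 passed and 1, Cx3cr1, was apart between the groups (4.35%, beside 5.52% of all genes). Their summed level was 372, 194, 279 and 609.8 CPM in HL1002P libraries 1 to 4, against 87.4, 162, 233 and 209.9 CPM in WT libraries 1 to 4. HL1002P library 4 was the highest for 22 of the 23 and WT library 1 had the lowest sum. Without HL1002P library 4 the median was 0.69, and without WT library 1 it was 0.86. Cd68, a lysosomal macrophage protein, had 8.04, 4.56, 7.09 and 13.6 CPM in HL1002P libraries 1 to 4, against 2.64, 3.73, 3.83 and 4.69 CPM in WT libraries 1 to 4 (edgeR adjusted p = 0.298), and the groups overlapped. The complement gene C1qa had 32.7, 17.6, 23.3 and 53.1 CPM in HL1002P libraries 1 to 4, against 5.32, 12.2, 21.5 and 21.1 CPM in WT libraries 1 to 4 (edgeR adjusted p = 0.483).

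MHC class II genes, with which immune cells present antigen, had the same order of HL1002P libraries. Cd74, the invariant chain, had 173, 72.0, 125 and 316 CPM in HL1002P libraries 1 to 4, against 28.0, 46.9, 106 and 147 CPM in WT libraries 1 to 4 (edgeR adjusted p = 0.559). The 7 genes had a median of 1.02, which became 0.51 without HL1002P library 4, the highest for all 7, and 0 were apart between the groups. Of 18 interferon-stimulated genes tested 0 passed, 18 had a positive log2 fold change, and 2, Oas1a and Oasl2, were apart (11.1%). Their median of 0.51 became 0.24 without HL1002P library 4. Oasl2, an antiviral protein, had 3.55, 2.85, 2.58 and 7.30 CPM in HL1002P libraries 1 to 4, against 1.83, 2.08, 2.45 and 2.17 CPM in WT libraries 1 to 4 (edgeR adjusted p = 0.365). The part of macrophage content in the values of Spp1, Timp1 and Ccl8 above was not tested.

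**Figure D5:**
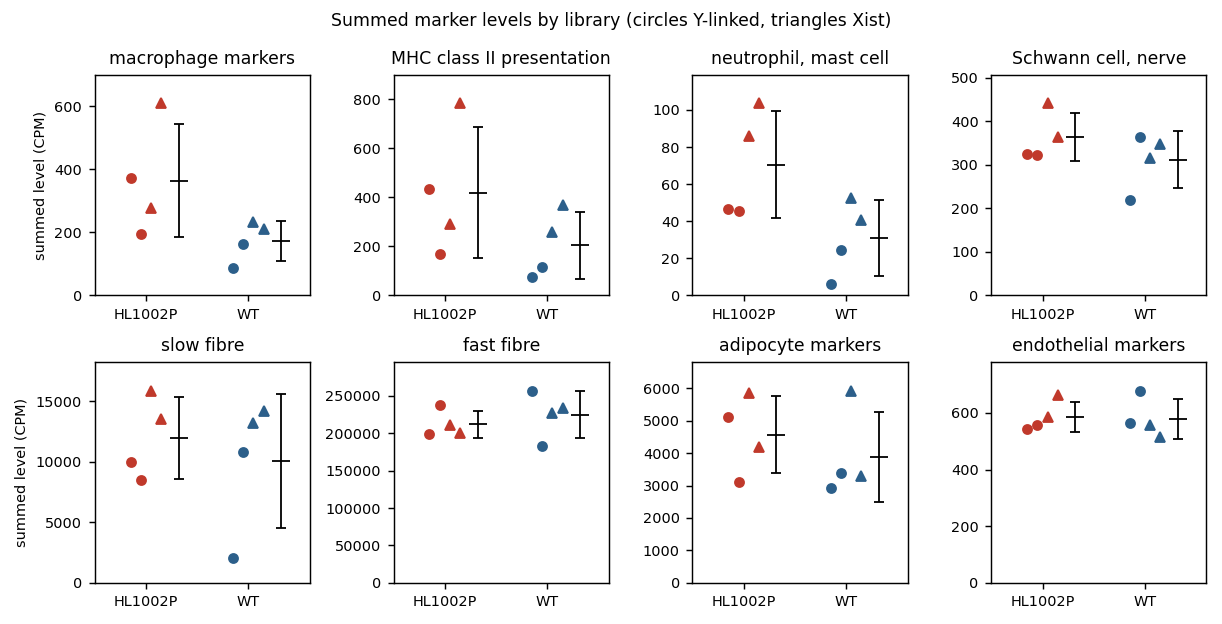
Summed level (CPM, vertical axes from 0) of 8 marker lists in the 4 HL1002P (red) and 4 WT (blue) libraries, with the mean and SD; circles are libraries with Y-linked transcripts and triangles those with Xist. Macrophage markers reach 609.8 CPM in HL1002P library 4 and 87.4 CPM in WT library 1, and the groups overlap in all 8 panels.

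Markers of other cell types of the muscle were mixed. Among 13 Schwann cell and nerve genes 0 passed and 2, Gldn and S100b, were higher without overlap (15.4%), with a median of 0.12 and summed levels of 322 to 441 CPM in HL1002P and 219.9 to 364 CPM in WT. Gldn, gliomedin, with which Schwann cells form the nodes of Ranvier, had 5.14, 3.25, 3.36 and 2.06 CPM in HL1002P libraries 1 to 4, against 1.13, 1.65, 1.10 and 1.35 CPM in WT libraries 1 to 4 (log2 fold change 1.39 ± 0.29, edgeR adjusted p = 0.170). Pmp2, a lipid carrier of peripheral myelin that was named for its small p, had 2.05, 3.13, 1.87 and 0.986 CPM in HL1002P libraries 1 to 4, against 0.501, 0.464, 0.358 and 0.389 CPM in WT libraries 1 to 4 (log2 fold change 2.21 ± 0.36, edgeR adjusted p = 0.0829). The part of nerve tissue in these genes was not tested.

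Of 13 tendon genes 0 passed, and the median was −0.28. A negative log2 fold change was found for 8 and a positive one for 5. Tnmd, Chad and Kera lay lower on average, and their groups overlapped. Their log2 fold changes were −0.66 ± 0.37, −1.10 ± 0.40 and −1.74 ± 0.78 (edgeR adjusted p = 0.554, 0.393 and 0.478). Scx and Cilp were the 2 that were higher without overlap (15.4%). Scx, the transcription factor of tendon cells, had 17.4, 10.1, 11.2 and 11.7 CPM in HL1002P libraries 1 to 4, against 7.76, 7.18, 6.69 and 9.04 CPM in WT libraries 1 to 4 (edgeR adjusted p = 0.265). Cilp, a cartilage matrix protein, had 134, 47.3, 77.9 and 55.5 CPM in HL1002P libraries 1 to 4, against 22.5, 32.5, 17.6 and 26.4 CPM in WT libraries 1 to 4 (log2 fold change 1.67 ± 0.34, edgeR adjusted p = 0.224). Among 14 fibroblast and progenitor markers 0 passed and Apod, apolipoprotein D, was apart, at 141, 124, 171 and 219 CPM in HL1002P libraries 1 to 4, against 37.1, 56.0, 59.9 and 79.0 CPM in WT libraries 1 to 4 (log2 fold change 1.497 ± 0.24, edgeR adjusted p = 0.105). Apod passed with sex as a covariate (edgeR adjusted p = 0.00476, range 3.63e-07 to 0.295 over all alternatives). The medians were −0.03 over 16 endothelial genes and 0.07 over 11 adipocyte genes, with 0 members apart in both. The 6 hemoglobin genes on the list of red blood cell genes were listed at 0 in all 8 libraries; Alas2, the heme synthesis enzyme of red cells, had 2.07, 2.98, 2.56 and 3.16 CPM in HL1002P libraries 1 to 4, against 3.68, 7.95, 4.88 and 4.99 CPM in WT libraries 1 to 4 (edgeR adjusted p = 0.264).

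A test of whether the difference between HL1002P and WT depended on sex, read from the transcripts, called 0 of 14065 genes with edgeR, and 925 had an unadjusted p under 0.05. The same test called 0 with limma voom and 16 with DESeq2. With sex as a covariate the comparison itself called 23 genes, 14 higher and 9 lower in HL1002P, which included all 8 named above.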

How the data were processed

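The deposited table held raw counts of 24062 gene symbols in 23 libraries, all whole numbers; the 8 columns of HL1002P and WT gastrocnemius were used. Per the submitters' processing notes, the authors used TopHat2 2.0.14, Bowtie2 2.2.6 and the mm10 build for alignment and featureCounts 1.4.6 (Subread) for the counts. Annotation, strand setting and treatment of multi-mapping reads are not given in the sources used here. TruSeq RNA v2, the kit per the labels, is not strand-specific. Besides the pairs named in the results, genes on the other strand overlap the spans of Scx (Bop1), Timp1 (Syn1), Hadha (Garem2) and Alas2 (Apex2), among others. The exact intervals were computed on counts pooled within a group, so they cover counting error only and not the spread between mice. Reads carry no molecular identifiers, so copies of a molecule were counted as separate reads. In R 4.3.3, edgeR 4.0.16 tested 14065 genes that passed filterByExpr (TMM, robust quasi-likelihood F tests, Benjamini-Hochberg adjusted p under 0.05); 5515 genes had no count in the 8 libraries. CPM used TMM-scaled totals. The procedure was tested on simulated data.

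Positions are those of GENCODE M21 (GRCm38), with 22750 symbols matched directly, 931 by synonym and 381 unmatched; promoters are those of RefSeq GRCm38.p6. Named were Bub1b, Cdkn2a, genes past the test, and choices from the 12 smallest p in each direction (groups apart, mean of at least 1 CPM, no predicted genes) and from each list's key members and up to 3 others of small p. Slc28a2, Cpt1b and genes named to account for a count of 5 or fewer were chosen after their values were seen. The comparison, members and 33 lists were chosen with earlier results of these data known, so no list's direction is independent evidence. Some genes were left off the lists and are not reported here. Alternatives were DESeq2 1.42.0, limma 3.58.1 (voom), other normalizations, filters, covariates and libraries. Xist and Y-linked genes served to read the sex of a library. Deviations of same-numbered libraries of both genotypes correlated at r = 0.0818 to 0.254 across genes; not every pair was above 0.1, so the numbers were not taken as pairs. No 2 libraries of a group were alike within sampling noise (chi-square per degree of freedom 32.8 to 111).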

Additional observations from a re-analysis of the deposited data

Results flagged for a closer look

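Of 166 groups of 4 libraries checked, the HL1002P and the WT group of each gene, 14 had a library far from the other 3 by Dixon's criterion. About 1 of 20 groups of independent, normally distributed values would meet it. That rate does not apply here, because the values were CPM without a log scale, from selected genes in the same libraries. The count of 14 is therefore a description. In 8 of the 14 that library was HL1002P library 1, on the high side. Its level was 189 CPM for Chrna1 (44.6 to 53.8 CPM in the other HL1002P libraries), 20.1 CPM for Chrng (0.911 to 3.21 CPM), 188 CPM for Gadd45a (16.0 to 36.0 CPM) and 34.5 CPM for Runx1 (4.82 to 8.73 CPM). It was also 181 CPM for Myh3 (15.1 to 37.6 CPM), 18.1 CPM for Gdf5 (1.20 to 1.79 CPM), 8.92 CPM for Tmem8c (0.556 to 1.54 CPM) and 5.60 CPM for Timp1 (1.6 to 2.05 CPM). HL1002P library 4 held 655 CPM of Trim63, above 252 to 293 CPM in the other HL1002P libraries.

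Among the WT libraries, library 2 was low for Glo1 (187 CPM, beside 210.3 to 212 CPM). WT library 2 alone held a read of Gm14085, a level of 0.0172 CPM, so that flag rests on a single read. Nudt16 was low in WT library 1, at 6.10 CPM beside 8.05 to 8.41 CPM. WT library 4 was high for Cdkn1a (70.0 CPM, beside 26.3 to 29.4 CPM) and for Sdhb (603 CPM, beside 539 to 546 CPM).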

How the results depend on the processing

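The 8 calls, 3 of them beyond 20 Mb of Bub1b, numbered 232 with DESeq2 (209 beyond), 13 with no filter on low counts, 23 with sex as a covariate (13 beyond) and 15 with the replicate number as a block (12 beyond, 5 of the 8 shared, Glo1, Ndufaf1 and Adal not; the block is no established pairing). They numbered 5 beyond the window among libraries with Xist, 3 in all among those with Y-linked transcripts, and 2 (1 beyond) without HL1002P and WT library 1, an alternative added after the data were seen. Leaving out 1 library gave 3 to 17 calls, and 1 to 13 beyond the window: 17 without HL1002P library 2 (13 beyond), 3 without HL1002P library 3 or WT library 3 (1 beyond in each). Gm14085 passed in all of the 21 alternatives; Pla2g4e and Aldh3a1 passed without each library in turn. Of 1759 comparisons of a named gene with its alternatives 1633 stayed on the same side of the threshold, 56 lost the call, 70 gained it and 0 reversed. Only the 8 genes that passed could lose a call, so all 56 losses were theirs. Most of the 1759 comparisons were of genes without a call, so the 1633 do not measure how stable the 8 calls were. Of 692 list medians 30 moved by more than the spread between libraries. The interaction with sex was called for 0 genes with edgeR and 16 with DESeq2. The cause of these differences was not tested. Low levels limit Bub1b (38 counts in HL1002P, 154 in WT) and Cdkn2a (104 in HL1002P, 12 in WT).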

Other observations

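Immediate early genes, which answer to activity and stress within minutes, lay lower on balance. Of 20 tested 0 passed; 13 had a negative log2 fold change, with a median of −0.28, and 2 were lower without overlap (10%). Nr4a2, an orphan nuclear receptor, had 1.25, 1.51, 1.04 and 1.99 CPM in HL1002P libraries 1 to 4, against 5.51, 4.50, 2.91 and 3.73 CPM in WT libraries 1 to 4 (log2 fold change −1.52 ± 0.27, edgeR adjusted p = 0.105). Dusp1, a phosphatase of MAP kinases, had 86.8, 70.0, 78.9 and 80.2 CPM in HL1002P libraries 1 to 4, against 103, 124, 107 and 119.8 CPM in WT libraries 1 to 4 (log2 fold change −0.52 ± 0.10, edgeR adjusted p = 0.141). Fos, the best known of them, overlapped between the groups, with 31.7, 25.6, 6.12 and 18.9 CPM in HL1002P libraries 1 to 4, against 23.9, 32.4, 9.74 and 34.6 CPM in WT libraries 1 to 4.

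The remaining genes named for their small p did not pass. They were picked from genes whose groups were apart, so that trait was set by the choice. Slc7a5, the large neutral amino acid transporter, had 15.8, 8.45, 12.7 and 13.0 CPM in HL1002P libraries 1 to 4, against 5.84, 6.52, 6.57 and 6.84 CPM in WT libraries 1 to 4 (log2 fold change 0.95 ± 0.18, edgeR adjusted p = 0.134). Thbs3, a thrombospondin of the matrix that overlaps Mtx1 on the other strand, had 15.4, 11.7, 15.9 and 17.0 CPM in HL1002P libraries 1 to 4, against 5.25, 9.03, 8.23 and 8.19 CPM in WT libraries 1 to 4 (edgeR adjusted p = 0.138). Cxcl14, a chemokine, had 65.0, 53.1, 56.9 and 53.1 CPM in HL1002P libraries 1 to 4, against 39.5, 40.7, 36.7 and 30.2 CPM in WT libraries 1 to 4 (edgeR adjusted p = 0.119). All 3 were higher in HL1002P. Ephx2, a soluble epoxide hydrolase, was lower, at 31.3, 34.8, 36.8 and 38.7 CPM in HL1002P libraries 1 to 4, against 46.6, 62.0, 58.3 and 49.0 CPM in WT libraries 1 to 4 (edgeR adjusted p = 0.141). Also lower were Ibtk, an inhibitor of a tyrosine kinase of B cells (log2 fold change −0.52 ± 0.09, edgeR adjusted p = 0.103), and the scaffold protein Pick1 (log2 fold change −0.56 ± 0.10, edgeR adjusted p = 0.105). Nudt16, a decapping enzyme, was higher (log2 fold change 0.79 ± 0.14, edgeR adjusted p = 0.103).

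Other lists lay near the median of all genes or varied within groups. The median log2 fold change was 0.12 over 19 genes of the integrated stress response, 0.12 over 13 chaperones (Hsph1 higher and apart, 7.69%), −0.14 over 17 clock genes (Cry2 higher and apart, 5.88%), 0.16 over 21 collagen and matrix genes (Bgn higher and apart, 4.76%) and −0.21 over 8 smooth muscle and pericyte markers, with 0 past the test in each. It was 1.28 over 8 neutrophil and mast cell markers (Csf3r higher and apart, 12.5%), 0.62 over 6 T and B cell markers, 0.12 over 11 markers of lipid-associated macrophages (Spp1 and Cd9 higher and apart, 18.2%) and 0.20 over 14 fibroblast markers, with 0 past the test. The summed level of the neutrophil and mast cell markers was 46.8, 45.6, 86.1 and 104 CPM in HL1002P libraries 1 to 4, against 5.93, 24.4, 52.6 and 40.9 CPM in WT libraries 1 to 4.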
